A study of Homo sapiens with 2 samples.

Results

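The nuclear genes for the respiratory chain were examined in a list of RNA sites recovered with CRTC2, which acts as a coactivator of CREB in transcription, from HCCLM3 cells. Members were all genes of the deposited peak list whose symbol begins with NDUF, UQCR, ATP5 or COX4 to COX8, or is SDHA, SDHB, SDHC or SDHD. This gave 93 genes with 530 peaks, out of 19480 genes and 175546 peaks in all. Of these members, 90 are protein-coding and carry 513 of the peaks. The other 3, NDUFA6-DT, NDUFB2-AS1 and NDUFV2-AS1, are non-coding RNAs named for a neighbouring subunit gene and encode no subunit. HCCLM3 is an established human hepatocellular carcinoma line, here of unmodified genotype (WT) and with no treatment named in the labels. The study made 1 RNA immunoprecipitation (RIP) library with CRTC2 and 1 input library, which is the RNA before precipitation, to find transcripts that CRTC2 contacts in its work on condensates of CRTC2 with the m6A reader YTHDF2. Neither library has a replicate and no precipitation with a control antibody was analysed here, so no comparison below carries a test, and RNA held by CRTC2 and RNA carried along unspecifically cannot be told apart.

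The respiratory chain sits in the inner mitochondrial membrane and turns the electrons of NADH and succinate into a proton gradient that drives ATP synthesis. Complex I (NADH dehydrogenase, NDUF genes) and complex II (succinate dehydrogenase, SDH genes) feed electrons in. Complex III (cytochrome bc1, UQCR genes) and complex IV (cytochrome c oxidase, COX genes) pass them on to oxygen, and complex V (ATP synthase, ATP5 genes) makes ATP. Most subunits are encoded in the nucleus, made on cytosolic ribosomes and imported, while a few core subunits of complexes I, III, IV and V are encoded by mitochondrial DNA. Hepatocytes are rich in mitochondria, and CREB with its coactivators is known for its control of hepatic fuel metabolism.

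Each peak has a fold, the authors' linear ratio of RIP over input at its summit, and a q, the authors' p-value adjusted over all sites. From these deposited values the RIP fragments at each summit and the input level around it were worked out. The input level is not a whole count of fragments, and many levels were multiples of 0.634. An interval after a fold is an exact Poisson 95% interval for the count of RIP fragments with the input level held fixed, and an interval after a share is an exact Clopper-Pearson 95% interval. Both cover counting error only, and the interval after a fold leaves out the counting error of the input. Over all peaks the median was 2 RIP fragments, and 46.2% of peaks rested on 1 fragment. Hepatocyte markers were present in part: FOXA1 had peaks outside introns on up to 22 fragments, HNF4A on up to 7, ALB on up to 5, APOB on up to 3 and AFP on up to 2, and APOA1, TTR and SERPINA1 had none. Of the blood markers PTPRC and CD3E had none and ITGAM had 4, each on at most 2 fragments. Of the endothelial and stromal markers VWF and COL1A1 had none, and PECAM1 and LUM had peaks on at most 3 fragments. A gene without a peak may still be expressed, since the list holds only sites where RIP exceeded input.

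Nearly all of the chain's genes were in the list, with a lower median fold and a deeper median input than all peaks. RefSeq holds 97 coding genes with matching symbols, and 90 of them had at least 1 peak (92.8%, 85.7 to 97.0), beside 72.4% of all 20037 coding genes. Their peaks had a median fold of 1.79 (quartiles 1.62 and 2.01), beside 1.89 (1.76 and 2.35) over all peaks. A fold of 3 or more was reached by 29 of 512 coding-member peaks on chromosomes 1 to 22, X and Y, beside 8.18% of all peaks. At gene level 21 of the 90 coding members (23.3%) had a peak that high, beside 37.3% of all genes and 43.3% of all coding genes with a peak. The median number of peaks per gene was 4 for the members, 5 for all genes and 7 for all coding genes. A gene with more peaks has more values from which its highest is taken, and the part of this in the gene-level shares was not tested. The median RIP depth at a member's summit was 4 fragments and the median input level 1.27, beside 2 and 0.236 over all peaks. Of the member peaks, 39.2% rested on 1 fragment. These traits were not particular to the chain. Of the genes for mitochondrial ribosomal proteins 93.5% had a peak, and of those for cytosolic ribosomal proteins 96.4%. Their median folds were 1.84 and 1.79, and their median input levels 0.634 and 10.1.

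The members' median folds lay near those of all peaks at like input level, but the list limits how far such medians can differ. Only sites past a limit on p are listed, so the fold has a floor at each input level. The lowest fold of any listed peak was 1.82 below a level of 0.1 and 1.60 at 2 to 5. At an input level of 2 to 5 the median fold was 1.95 for 78 member peaks and 1.92 for all 16177 peaks. At 5 to 10 it was 1.74 for 71 member peaks and 1.77 for all. At 10 to 40 it was 1.53 for 58 member peaks and 1.60 for all, and 11.3% of the members' peaks lay in this range against 2.04% of all. At 0.5 to 2 the members' median was 2.38 and that of all peaks 2.21. Between 0.1 and 0.5 the medians were 1.65 and 1.75, and below 0.1 they were 1.91 and 1.92. Below 0.1 the members' median depth was 1 fragment, so the nearness of the medians there was largely set by the floor. Because of this floor, these ranges do not show the part of the input level in the members' lower overall median. It was not tested further.

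**Figure D1:**
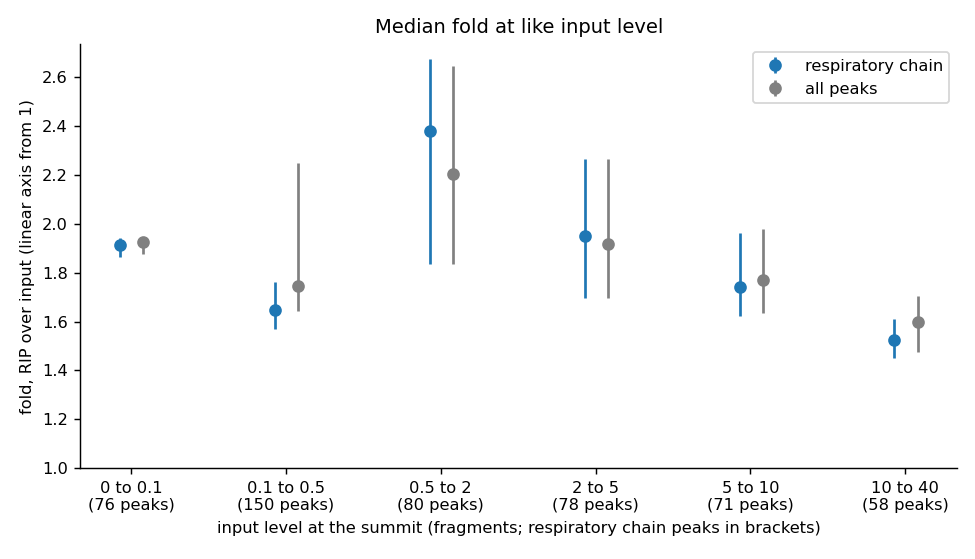
The median fold (points, linear axis starting at 1) with its quartiles (bars) is plotted against ranges of input level for the 513 peaks of coding respiratory chain genes and for all peaks. The medians of the members and of all peaks differ most at an input level of 0.5 to 2, with 2.38 against 2.21, and the quartiles overlap in every range. The list's limit on p sets a floor to the fold at each input level.

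A deposited gene name did not always say where a peak lay. The list assigns many peaks to the gene with the nearest start site, so each summit was set against the RefSeq spans of genes. Of those 512 coding-member peaks, 400 had the summit inside the named gene and 112 outside it, 69 of them inside another coding gene. All 112 exon peaks and all 112 intron peaks lay in the named gene, as their gene was read from the exon or intron label itself. Of the 93 peaks in the 3′ UTR class, 53 lay outside, each inside another coding gene. Among all coding genes 51.2% of the 3′ UTR class peaks lay in the named gene and 85.1% of peaks of all classes. Of the 29 with a fold of 3 or more, 12 lay outside the named gene. Calls were not made by strand, so a gene and an overlapping or antisense partner cannot be told apart, and 41 of the 400 in-gene summits also lay in another coding gene.

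Counted inside the genes themselves, 83 of the 97 coding genes of the chain had a peak, beside 12119 of all 20037 coding genes. Of the 83, 14 had an in-gene peak of 3-fold or more (16.9%). The share was 41.3% of the 13856 genes with an in-gene peak and 44.8% of the coding genes among them. The highest in-gene fold per gene had a median of 2.21 over the members, 2.83 over all genes and 2.91 over all coding genes. The number of listed peaks per gene, with medians of 4, 5 and 7 in the same order, was not taken into account. Of the 17 in-gene peaks of at least 3-fold, 15 had 5 or more RIP fragments, and the depth ran from 3 to 21. They were spread along the genes, with 4 in the first 20% of the gene's length and 4 in the last 20%. Several had a low input level, with 0.634 for NDUFB1 and COX6C, 1.27 for NDUFAF6 and 1.90 for SDHB and ATP5PO. NDUFA1 had 5.70 and ATP5IF1 5.07.

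**Figure D2:**
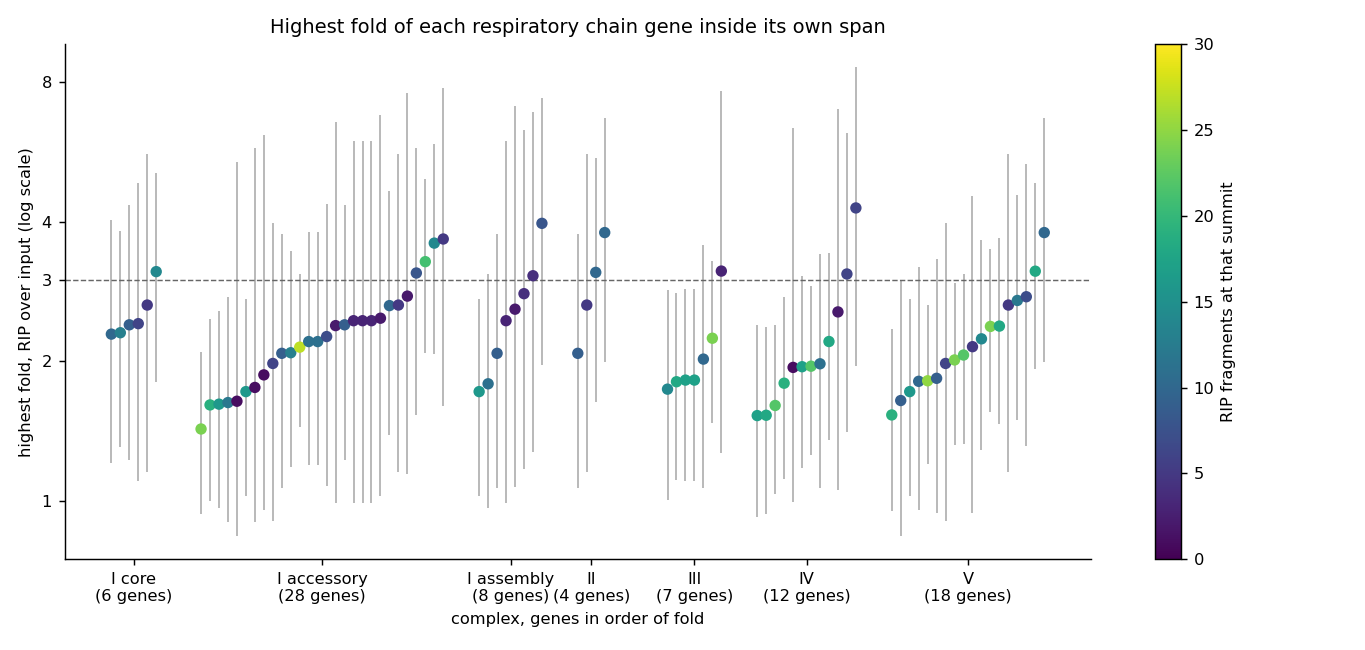
Each point is the highest fold of a coding respiratory chain gene among peaks with the summit inside its own span (log axis), with its Poisson 95% interval as a grey line and its RIP fragments as colour, for 83 genes grouped by complex. In all, 14 genes reach the dashed line at 3, and many intervals of genes below that line extend above it.

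Of the 530 member peaks, 4 had a q of at most 0.05, beside 1.63% of all peaks. The q was 1 for 94.0% of the member peaks and for 88.8% of all peaks. Where the list's assigned gene was used for every peak, the 4 became 11. That setting also changed which peaks were members, and their number is not given here, so 11 has no share beside it. Of the 4 peaks, only that of NDUFA1 was placed inside its own gene. NDUFA1 encodes a small accessory subunit of complex I. Its peak was of promoter class near the gene's start (hg38 chrX:119871894-119872035), and its fold was 3.28 (2.09 to 4.94), with 21 RIP fragments against an input level of 5.70, and a q of 0.0117. NDUFA1 carried 2 more peaks inside the gene. The one in the 3′ UTR at the far end (chrX:119876565-119876601) had a fold of 3.11 (1.64 to 5.49) on 10 fragments. Between them lay a peak of 1.46-fold (0.910 to 2.24) on 19 fragments and an input level of 12.7. RIP depth at this middle site was like that at the start, and the input there was 12.7 against 5.70.

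Of the other 3 peaks at this q, those named for COX6B2 and COX7A2 had the summit in another gene. The peak named for COX6B2, the testis form of a complex IV subunit, had a fold of 4.32 (1.81 to 9.72) on 4 fragments, and its summit lay in KMT5C. The peak named for COX7A2, the widely expressed form of another complex IV subunit, had a fold of 3.96 (2.24 to 6.57) on 13 fragments, and its summit lay in TMEM30A. Inside COX7A2 the highest fold was 1.98. The peak named for NDUFA6-DT, of 3.88-fold on 3 fragments, spanned 54237 to 133601 of an alternative contig of chromosome 22. Summits on such contigs were not placed in genes, so whether it lay in a respiratory chain gene is not known.

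Complex I core subunits, which carry the flavin and iron-sulphur centres, had in-gene peaks in 6 of 7 genes. NDUFS1, the largest iron-sulphur subunit, had the highest fold among them. It carried 8 exon peaks, and the highest lay in exon 15 of 18 (chr2:206127771-206127931) with a fold of 3.12 (1.802 to 5.10) on 14 fragments. A second, in exon 8 of 18, had 3.09 (1.41 to 6.20) on 6 fragments. The other exon peaks of NDUFS1 ran from 1.67 to 2.83. NDUFS3, a core subunit of the peripheral arm, reached 2.65 (1.16 to 5.59) on 5 fragments. NDUFV2, which carries an iron-sulphur centre next to the flavin, had 20 in-gene peaks and none over 2.31, although its deepest summit held 24 fragments. Of these 20 peaks, 11 were intronic. NDUFS7, which carries the last iron-sulphur centre before ubiquinone, was listed at 3.69-fold, but that summit lay in PWWP3A, and inside the gene it reached 2.40 (1.23 to 4.34).

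Among the 29 accessory genes of complex I with a peak, 28 had one inside the named gene and 4 reached 3-fold there. Besides NDUFA1 these 4 were NDUFB1, NDUFAB1 and NDUFA12. The 29 include the read-through gene NDUFC2-KCTD14. Its 4 summits also lay in NDUFC2, the gene without an in-gene peak under its own name. NDUFA4 was counted with complex IV. NDUFAB1, the mitochondrial acyl carrier protein, which also serves fatty acid synthesis in the organelle, had a 3′ UTR peak of 3.60-fold (2.08 to 5.88) on 14 fragments (chr16:23582248-23582286). Its q of 0.0523 was just above the limit. A neighbouring 3′ UTR peak of the same gene had 1.92 on 7 fragments at the same input level. NDUFB1, a small membrane-arm subunit, had a fold of 3.67 (1.61 to 7.75) on 5 fragments at the gene's end (chr14:92116141-92116216). Its start held 15 fragments at a fold of 1.52. NDUFA12 had a promoter-class peak of 3.10 (1.54 to 5.78) on 8 fragments. NDUFB9 was listed at 3.11, with the summit in MTSS1, and reached 1.62 inside the gene. NDUFS5 had the deepest peak of the group, with 27 fragments at 2.15-fold (1.44 to 3.09).

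All 8 assembly factors of complex I, which build the enzyme without staying in it, had in-gene peaks. NDUFAF6 reached 3.97 (1.96 to 7.39) on 8 fragments in exon 7 of 12, and a second peak of it had 3.10 (1.54 to 5.78). NDUFAF5, which modifies a core subunit during assembly, reached 3.06 (1.28 to 6.88) on 4 fragments. NDUFAF2 reached 2.80 (1.17 to 6.30), also on 4. NDUFAF1 was listed at 3.53 and 3.05 with both summits in NUSAP1, and its own highest fold was 2.45 on 3 fragments. NDUFAF7 was listed with 19 peaks, at up to 2.08-fold, but 12 of these summits also lay in PRKD3, which leaves 7 in NDUFAF7 alone. NDUFAF5 and NDUFAF6 had 16 each, none of them in another coding gene. Outside introns the assembly factors had a median of 4 fragments per in-gene peak, against 7 for both the core and the accessory subunits.

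All 4 complex II genes had in-gene peaks, and SDHB and SDHC reached 3-fold. SDHB is the iron-sulphur subunit. Its peak in exon 5 of 8 (chr1:17027721-17027842) had a fold of 3.79 (1.998 to 6.68) on 10 fragments against an input level of 1.90. Exons 4, 6 and 7 of SDHB held 13, 13 and 10 fragments at folds of 1.91, 1.52 and 1.64. The RIP depth of exon 5 was thus within the range of its neighbours, while its input level was the lowest of these exons. SDHC, a membrane anchor, had 3.11 (1.64 to 5.49) on 10 fragments, 21 bp after its start. SDHD, the other anchor, had 5 fragments at its highest fold of 2.65 (1.16 to 5.59), and SDHA, the flavoprotein, reached 2.08 (1.07 to 3.77) while its deepest summit held 19 fragments.

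By the median of the highest in-gene fold per gene, complex III was lowest with 1.82 over 7 genes, beside 2.88 for complex II. Complex III genes had a median of 4 listed peaks and complex II genes 7. Over all in-gene peaks the median folds were 1.63 for complex III and 1.70 for complex II, and outside introns 1.81 and 1.78. UQCRC2, a core protein of the complex, was listed with the most peaks of any member, 22. Of its 19 in-gene peaks 13 were intronic and 14 also lay in PDZD9, and the highest, of 3.13-fold (1.27 to 7.65) in intron 4, rested on 3 fragments and was among these 14. UQCRB, which takes part in ubiquinone binding, reached 2.24 (1.47 to 3.30) on 24 fragments at its start. UQCR11 was listed at 2.25 outside its span and had 1.82 inside it, and UQCR10 was listed at 2.07 and had 1.81 inside. UQCRHL is a near-identical copy of UQCRH, so reads may be divided between them, and its single in-gene peak of 2.02-fold is uncertain. The read-through genes NDUFC2-KCTD14 and ATP5MF-PTCD1 likewise overlap a subunit gene and share its reads.

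Complex IV genes differed from one another in whether they held a peak at all. Several subunits exist as a widely expressed form and a form restricted to tissues such as muscle, lung or testis. All 6 widely expressed forms of such pairs (COX4I1, COX6A1, COX6B1, COX7A2, COX7B and COX8A) had a peak inside the gene, with a deepest summit of 13 to 25 fragments. Of the 6 restricted forms (COX4I2, COX6A2, COX6B2, COX7A1, COX7B2 and COX8C) only COX7B2 did, on at most 4 fragments. A missing peak cannot be told apart from a missing transcript. The highest in-gene fold of the complex was that of COX6C, a subunit without such a pair, with 4.28 (1.96 to 8.61) on 6 fragments near the gene's end. COX6C also held the deepest summit of all members, 30 fragments, at 1.84-fold (1.26 to 2.60). COX7A2L, which takes part in joining complexes III and IV, reached 3.09 (1.41 to 6.20) on 6 fragments.

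Among 19 complex V genes with a peak, 18 had one inside the gene, and ATP5PO and ATP5IF1 reached 3-fold there. ATP5PO encodes the stalk subunit that confers oligomycin sensitivity. Its peak in exon 4 of 7 (chr21:33909066-33909115) had a fold of 3.79 (1.998 to 6.68) on 10 fragments. The neighbouring exon 3 had 2.41 (1.104 to 4.85) on 6 fragments at the same input level of 1.90, and the intervals overlapped. ATP5IF1, the inhibitor that stops the synthase from running in reverse, carried 1 peak (chr1:28236249-28236402), with 3.13-fold (1.92 to 4.85) on 18 fragments and a q of 0.0622. ATP5F1E and ATP5MG were each listed at 3.09, with summits in PRELID3B and UBE4A, and had 2.38 (1.56 to 3.49) and 2.15 (0.941 to 4.54) inside the gene. The catalytic subunit gene ATP5F1B reached 2.07 (1.328 to 3.08) on 22 fragments.

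**Figure D3:**
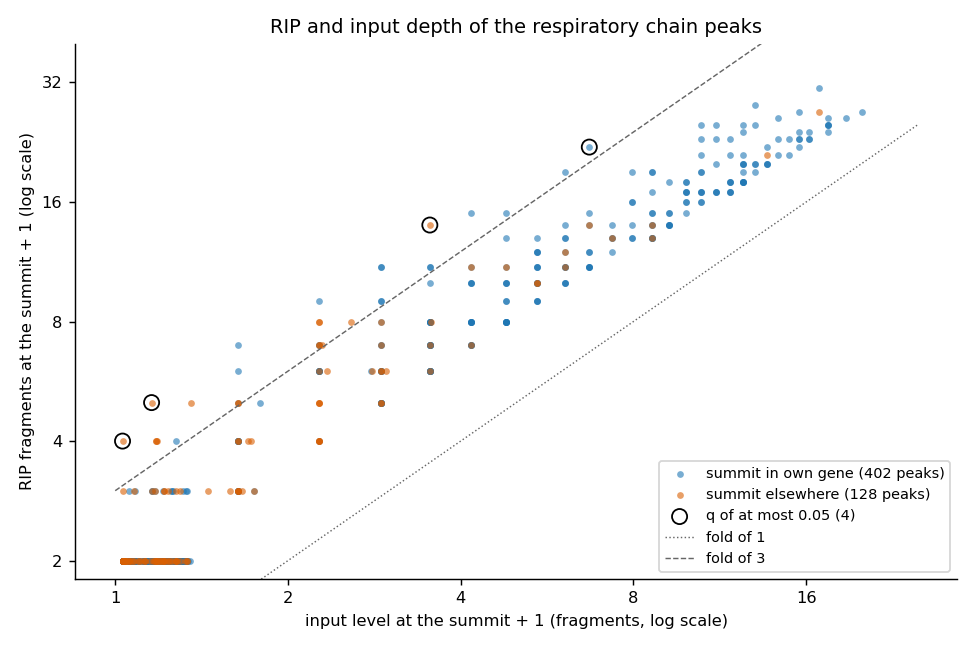
Each of the 530 member peaks is placed by its input level plus 1 (horizontal, log scale) and its RIP fragments plus 1 (vertical, log scale). Lines of equal fold thus run diagonally. Blue marks summits inside the named gene. Orange marks all others, including summits on alternative contigs, which were not placed in genes. The 4 circled peaks reach a q of 0.05, and only the deepest of them, NDUFA1 with 21 fragments, is blue.

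RIP depth differed among complexes more than fold did. Over in-gene peaks outside introns, the median was 16 fragments for complex IV, 15.5 for complex III, 12.5 for complex V, 8.5 for complex II, 7 for complex I subunits and 4 for its assembly factors. The input level ran in nearly the same order, from 8.87 for complex IV to 1.27 for the assembly factors. The median folds of the same peaks lay between 1.71 and 1.85. Over all coding genes such peaks had a median of 3 fragments, an input level of 0.634 and a fold of 1.94.

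The share of peaks at gene starts was above that over all coding genes. The promoter class, which in this annotation includes up to 3000 bp on the transcribed side of the start, held 158 of 513 peaks (30.8%, 26.8 to 35.0), beside 18.4% over all coding genes. Genes of the cytosolic ribosome had 62.0% and those of the mitochondrial ribosome 24.9%. Exon peaks made up 21.8% (18.3 to 25.7) of member peaks and 33.3% over all coding genes. Introns held 21.8%, and 94.6% of these intron peaks rested on 1 fragment. The 3′ UTR class held 18.1% (14.9 to 21.7), beside 13.0% over all coding genes, but 53 of its 93 member peaks lay outside the named gene. The 5′ UTR class held 1.36%, beside 2.16%.

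**Figure D4:**
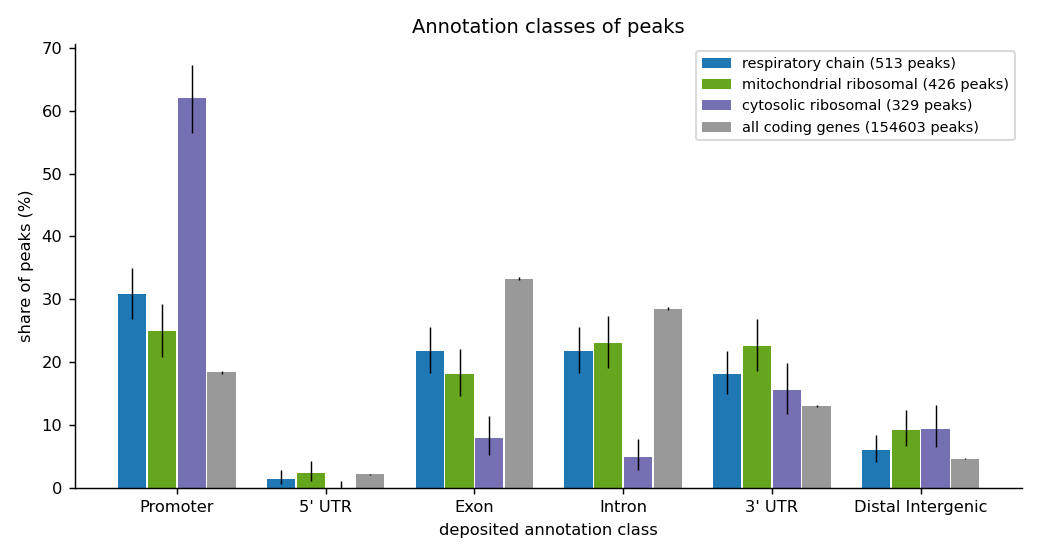
Bars give the share of peaks in each deposited annotation class with Clopper-Pearson 95% intervals, for respiratory chain genes, mitochondrial ribosomal protein genes, cytosolic ribosomal protein genes and all coding genes. The promoter class takes 30.8% of respiratory chain peaks, between the 62.0% of cytosolic ribosomal protein genes and the 18.4% of all coding genes.

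A gene-length scale gave a like picture without the annotation. Of 382 member peaks inside their gene and at most 1 kb wide, 29.1% (24.6 to 33.9) had the summit in the first 20% of the gene, beside 19.04% over all coding genes. The last 20% held 18.1% (14.3 to 22.3) beside 28.2%. Member peaks in the first 20% had a median of 10 fragments, and the other stretches of this length had medians of 3 to 5.5. Member genes were shorter, with a median length of 9936 bp against 24115 bp over all coding genes, and the part of gene length in these shares was not tested.

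**Figure D5:**
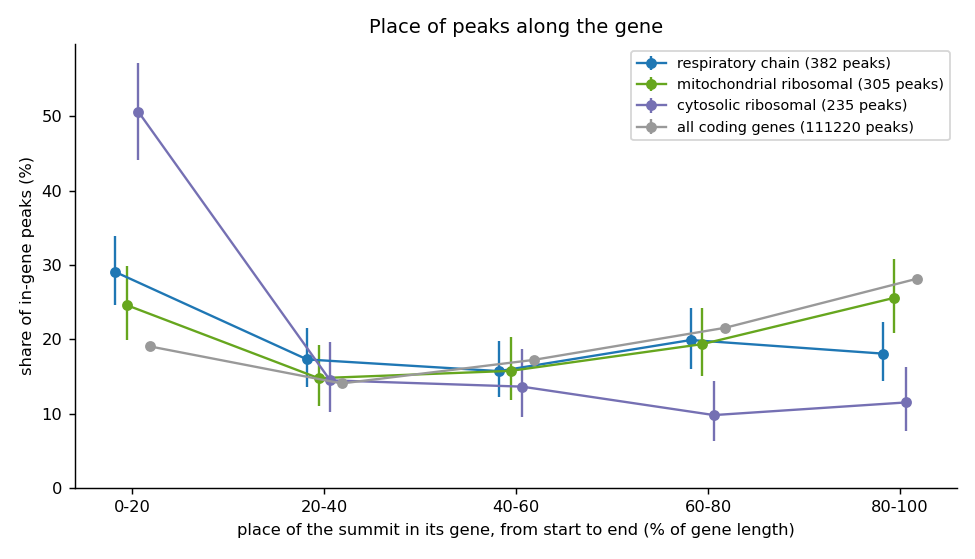
The share of in-gene peaks in each 20% of the gene's length is plotted from start to end with Clopper-Pearson 95% intervals. Respiratory chain genes have 29.1% in the first stretch and 18.1% in the last, while all coding genes have 19.04% and 28.2%.

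Many of these peaks lay directly at the start of the RNA. A start-proximal peak was taken as one of promoter class, at most 1 kb wide, that begins within 50 bp after a start site. Of the 90 coding members 40 had one (44.4%, 34.0 to 55.3), beside 21.0% of all coding genes with a peak, 25% for the mitochondrial ribosome and 76.5% for the cytosolic ribosome. By complex the counts were 4 of 7 core, 12 of 29 accessory and 2 of 8 assembly genes of complex I, 3 of 4 of complex II, 5 of 7 of complex III, 4 of 16 of complex IV and 10 of 19 of complex V. These 40 peaks began a median of 24 bp after the start, held a median of 15 fragments (2 to 27) at an input level of 8.87 and had a median fold of 1.62. Of the 40, 0 reached a q of 0.05, beside 78 of 3135 start-proximal peaks over all coding genes. The members' other peaks had a median of 3 fragments and of 1.81-fold, so the members' sites at the starts were deeper and lower in fold. Over all coding genes both kinds of peak had a median of 1.89-fold. For the mitochondrial ribosome the start-proximal median was 1.96 and the other 1.84, and for the cytosolic ribosome 1.88 and 1.78. The floor on the fold differs with the input level, which was 8.87 at the members' starts and 0.634 at their other peaks. Its part in these medians was not tested. SDHC, at 3.11, was the only start-proximal peak of a member above 3-fold.

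The first bases of 1 start-proximal peak of each role, as far as the RefSeq window to 50 bases after the start reaches, are shown so that the RNA under these sites can be read. They are given 5′ to 3′ on the strand of the gene, cut at 30 bases, from RefSeq (GRCh38), with GGAC, the core of the usual m6A context, in capitals. Each is the peak of its role with the most fragments, except that the deeper peaks of NDUFS5 (27 fragments), which shared fewer than 15 bases with its window, and of UQCRB (24 fragments) are not shown.
NDUFV2, chr18:9102724-9102748, 24 fragments: ggtgaacagtgtggcccgccatgtt
NDUFA12, chr12:95003655-95003684, 23 fragments: caagatggagttagtgcaggtcctgaaacg
NDUFAF2, chr5:60945207-60945236, 15 fragments: ccctactgcgggtcccgctgctggcagcgc
SDHB, chr1:17053989-17054018, 15 fragments: tggcggcggtggtcgccctctccttgaggc
UQCRH, chr1:46303733-46303747, 23 fragments: gctgctcgtgttgaa
COX7B, chrX:77899495-77899517, 25 fragments: gaagcgaattggcaccaaagcag
ATP5MG, chr11:118401630-118401655, 26 fragments: ggcggttcggggcgacGGACtctcca
Of these 7 stretches only that of ATP5MG holds GGAC. Over the 50 bases after the start, GGAC on the gene's strand was present in 20 of 72 member windows (27.8%, 17.9 to 39.6) and in 18.8% of all 27305 RefSeq windows, a share within that interval. On either strand the shares were 45.8% and 33.5%. A match of these letters is a description and marks no m6A site.

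Genes that serve the chain without being members were read from a list of 50 assembly factors, electron carriers and translation factors of the chain. Of these, 45 had a peak (90%, beside 72.4% of all coding genes). A fold of 3 was reached by 20 of the 45 (44.4%), near the 43.3% of all coding genes with a peak. Counted inside the genes, 14 of 43 reached it (32.6%, beside 44.8% of all coding genes with an in-gene peak). A q of 0.05 was met by 4 of 424 peaks (0.943%, beside 1.63%), each inside its gene. UQCC1, an assembly factor of complex III, had 5.37 (2.35 to 11.3) on 5 fragments in exon 4 of 8. SCO1, which delivers copper to complex IV, had 5.004 (2.29 to 10.1) on 6 fragments in its 3′ UTR. LRPPRC, which stabilises mitochondrial mRNAs, had 4.85 (2.56 to 8.55) on 10 fragments in exon 6 of 38. SDHAF3, an assembly factor of complex II, had the next highest fold of the list, 4.17 (2.06 to 7.76) on 8 fragments, without reaching that q. COA1, an assembly factor, had 3.88 (1.57 to 9.47) on 3 fragments in a peak 14828 bp wide. The median highest fold was 2.91 in this list, 2.29 in the members and 2.91 over all coding genes. The median number of peaks per gene was 7, 4 and 7 in the same order. The median input level was 0.288, 1.27 and 0.249 in the same order.

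The 13 genes of the citric acid cycle, which supplies the electrons, all had a peak inside the gene, beside 12119 of all 20037 coding genes. A q of 0.05 was met by 0 of their 143 peaks, beside 1.63% of all peaks. SUCLG1 had the highest fold of these genes at 4.28 (1.96 to 8.61). Of 14 regulators of mitochondrial biogenesis, 13 had a peak inside the gene. The other, PPARGC1A, was listed only with a peak 1423962 bp wide on 1 fragment, with the summit outside it. Among them GABPB1, a subunit of the nuclear respiratory factor GABP, had 6.12 (3.13 to 11.1) on 9 fragments in exon 7 of 10. PPARGC1B, a coactivator of mitochondrial genes, had 4.11 (1.72 to 9.24) on 4 fragments. These were the 2 of 164 regulator peaks that reached a q of 0.05 (1.22%, beside 1.63%). The mitochondrial genome, which encodes the remaining subunits, had 14 peaks with folds of 1.41 to 2.002 on 30 to 43 fragments. Of these 14 peaks 0 reached that q, beside 1.63% of all peaks. Their median input level was 22.2, beside 1.27 for the nuclear members, and these peaks were not placed in single mitochondrial genes.

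Some of the chain's genes fall outside the members although RNA of them was seen. NDUFA8 and UQCRC1 have rows in the list without a symbol, and reached 1.87 (0.928 to 3.49) on 8 fragments and 2.29 (1.21 to 4.04) on 10. COX7C, UQCRQ and ATP5MK had summits inside the gene that were named for SNORD138, GDF9 and MIR1307, at 1.41, 1.91 and 1.45-fold on 20, 13 and 17 fragments. COX6A2 and NDUFA3 held no summit. The chain has many pseudogenes, which can take reads from their parent genes. Of 193 pseudogenes with matching symbols, 13 held a summit, and UQCRBP1 reached 5.27-fold on 5 fragments at a q of at most 0.05.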

How the data were processed

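A Magna RIP kit and a stranded pico-input total RNA kit were used, per the labels' protocols. The submitters' processing notes name HISAT2, MACS2 and hg38, without versions or settings. The authors deposited, for each peak, a fold (linear ratio), a −log10 p and a −log10 q. The headers of the last 2 were spoiled, and the columns were identified by place and values. The fold equals (RIP fragments + 1) / (input level + 1) and p follows a Poisson distribution; whole fragments met both within 0.001 for 100% of peaks, with 1 solution for 97.5%. The recovery was tested on simulated data. Total library depth is not given in the files. Exon and intron peaks were counted for the gene in their label, other peaks for the assigned gene. An identifier linked to a wrong symbol (22 rows) was left out. Summits were placed in RefSeq gene spans (GRCh38). Python 3.11.15 with pandas 2.3.3 and SciPy 1.17.1 was used. Named genes were the 4 highest folds per role, every member at q of at most 0.05, the 5 with most peaks, the 3 with most fragments, genes without a member row, and, for the list of 50, the 4 highest and any at that q. Other genes named, including the isoform pairs, genes with an in-gene fold of 3 or more, start-proximal peaks and pseudogenes, were chosen after their values were seen, as were the start-proximal definition and the GGAC search. Members and lists were chosen with earlier results of these data known. With 1 library per group no test was made. Alternatives covered gene assignment, annotation class, p, fold, width, fragments, chromosomes and gene class.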

Additional observations from a re-analysis of the deposited data

How the results depend on the processing

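Values of the 93 members were recomputed under 9 other settings and 2 chosen after seeing the data (summit inside the gene's RefSeq span; members by RefSeq identifier). Of 53 recomputed summary values, 36 stayed within their counting interval, or within 1.5 times for a count, and 17 moved. The share of genes with a peak, 92.8%, was 74.2% without promoter-class peaks, 82.5% at a −log10 p of at least 2, 21.6% at 3-fold or more, and 85.6% both with at least 5 fragments and with the summit in the gene. The 4 peaks at q of at most 0.05 became 11 with the assigned gene for every row, 2 without promoter-class peaks, 2 with at least 5 fragments and 1 with the summit in the gene. Each of these settings also changed which peaks were counted, so these counts have unlike totals. The promoter-class share, 30.8%, was 22.7% with the assigned gene, 42.1% without intron, downstream and distal peaks, 25% at 3-fold or more and 40.9% with at least 5 fragments. The median fold, 1.79, was 2.02 at the stricter p, 3.21 at 3-fold or more and 1.76 with the summit in the gene. The median highest fold, 2.29, was 3.38 at 3-fold or more. Of 321 values for single genes 7 changed by over 1.5 times. With the summit in the gene, COX7A2 went to 1.98, NDUFB9 to 1.62 and NDUFS7 to 2.40, the value it also had with at least 5 fragments. Without promoter-class peaks, UQCRB went to 1.41 and ATP5F1E to 1.55, and by assigned gene SDHB went to 1.92. Those of COX7A2, UQCRB and SDHB left their counting interval. Limits on p, fold or fragments remove peaks by construction, and the causes of the other shifts were not tested. No paired analysis was possible because each group has 1 library. At a median of 4 fragments a fold's interval is wide, so differences between single genes mostly lie within counting error.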
